A study of Caenorhabditis elegans with 2 samples.

Results

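The cuticle collagen genes of Caenorhabditis elegans were examined in peak lists of C16A3.4 tagged with eGFP, from L1 larvae. The genes were chosen by name, as every protein-coding gene with a symbol beginning col- plus 16 collagens named for their effect on body shape (dpy, rol, sqt and bli genes). This gave 172 of 19973 protein-coding genes on the nuclear chromosomes, 156 of them numbered col- genes. The name is not a perfect guide, since col-99 encodes a transmembrane collagen and not a typical cuticle collagen. A gene was counted when its promoter window, which reached from 1000 bp before the annotated 5′ end to 200 bp after it, held a peak summit. Signal values are the authors' own, on a scale that is not stated, and a replicate's value is that of its nearest summit within 100 bp unless said otherwise.

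Chromatin immunoprecipitation and sequencing had been done on whole first-stage larvae of mixed sex from strain OP345, which carries the unc-119(ed3) mutation and the integrated transgene wgIs345. The transgene expresses C16A3.4, a zinc finger protein gene, as an added tagged copy, and the labels name the antibody only as C16A3.4. The series has 1 group, of 2 biological replicates, and no second condition, so the comparisons set collagens beside other protein-coding genes and give no test. Whole larvae mix all cell types, so a strong signal in few cells and a weak signal in many cannot be told apart.

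Cuticle collagens are small secreted proteins with Gly-X-Y repeats. The hypodermis makes them, trims and cross-links them, and lays them down as a new exoskeleton at each moult, and different collagens are made in successive waves within a moulting cycle. Some form named structures: a group of dumpy collagens is needed for the annular furrows, and bli-1 and bli-2 for the struts of the adult cuticle. Loss of others changes the shape of the whole animal, as the names dumpy, roller and squat record.

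A smaller share of collagen genes than of other genes carried peaks, and the strongest of their peaks lay in promoters shared with unrelated genes or inside other genes. In the thresholded list, 11 of 172 collagens (6.40%, Wilson 95% interval 3.61 to 11.1) had a promoter summit, against 2717 of 19801 other protein-coding genes (13.7%, interval 13.2 to 14.2). Over all protein-coding genes the share was 13.7%. These 11 genes, all of them numbered col- genes, had only 10 separate peaks. Sharing was no more common at collagens than elsewhere. The strongest thresholded peak was shared with another protein-coding gene at 5 of the 11 (45.5%), against 55.8% of other genes with one. The 5 include col-3 and col-117, which share a peak with each other. The pooled list, a relaxed list of peaks and background, put a summit in the window of 47 collagens (27.3%, interval 21.2 to 34.4), against 36.5% of other genes and 36.5% of all protein-coding genes.

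The ratio of the shares was lower among strong peaks than over the whole pooled list, but it rested there on few collagens. Among the 1000 strongest pooled peaks, 3 collagens (1.74%) had a summit, against 5.46% of other genes, a ratio of 0.319. With the 500 strongest it was 0.383, from 2 collagens, so it did not change steadily with strength. With the 15000 strongest the shares were 18.6% of collagens and 30.3% of other genes, a ratio of 0.614. With all 21096 pooled peaks it was 0.748. At the 8 depths plotted it ran from 0.319 to 0.748.

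**Figure D1:**
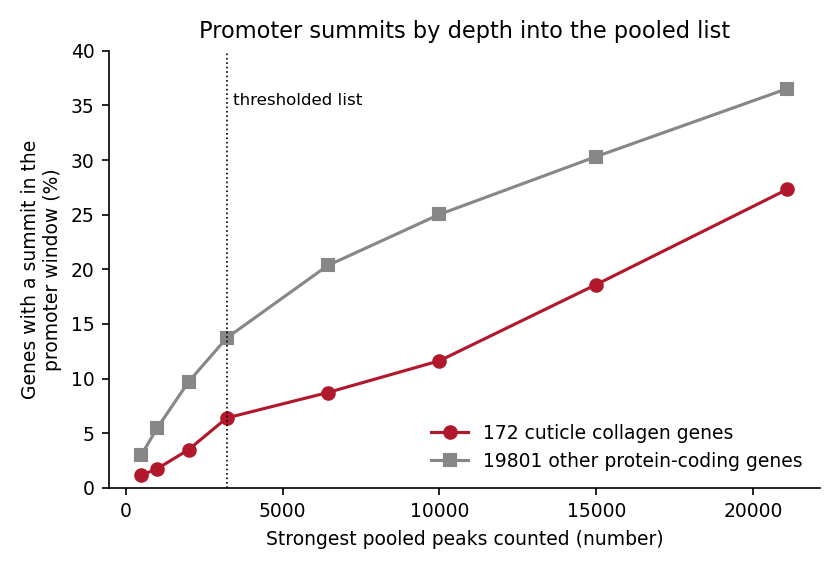
Share of genes with a summit in the promoter window (vertical axis, %) as more of the pooled peaks are counted from the strongest down (horizontal axis, number of peaks), for the collagens (circles) and for other protein-coding genes (squares). The dotted line marks the 3220 peaks of the thresholded list, where the shares are 6.40% and 13.7%, and the collagens lie lower at every depth plotted.

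Each replicate gave the same order of the 2 groups when as many of its own strongest peaks were taken as the thresholded list holds. Replicate 1 put a summit in the window of 8 collagens (4.65%), against 13.4% of other genes, with 13.3% over all protein-coding genes. Replicate 2 did so for 13 collagens (7.56%), against 13.2% of other genes, with 13.1% over all. Both replicates' strongest peaks held 7 collagens (col-2, col-8, col-38, col-42, col-71, col-103 and col-185), which is 4.07%, against 10.7% of other genes. This counts genes and not matched summits. At col-103 the strong summit was at −28 bp in replicate 1 and 101 bp past the 5′ end in replicate 2.

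The 10 peaks fell into 3 kinds by what else lay at the summit, and bases around some of the summits are printed here as examples of each. The kinds rest on the positions of annotated genes and cannot be read from these bases alone. For each gene the 101 bases centred on the summit are given 5′ to 3′ on the strand of the collagen gene. Capitals mark 6-base words described further on, except at col-185, where they mark the exon of the tRNA gene WBGene00014413.
col-38, shared with rpl-5 (chrII:8569488-8569588, ce11, minus strand): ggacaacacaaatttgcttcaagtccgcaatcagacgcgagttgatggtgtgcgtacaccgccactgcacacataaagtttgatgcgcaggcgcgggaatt
col-2, shared with ndc-80 (chrIV:10085837-10085937, ce11, minus strand): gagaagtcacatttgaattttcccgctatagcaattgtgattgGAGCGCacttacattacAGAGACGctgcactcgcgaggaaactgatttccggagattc
col-185, at a tRNA gene (chrX:13511930-13512030, ce11, minus strand): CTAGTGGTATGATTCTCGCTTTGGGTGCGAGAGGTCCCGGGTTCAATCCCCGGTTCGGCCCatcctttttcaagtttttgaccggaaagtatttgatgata
col-3, shared with col-117 (chrIV:8824462-8824562, ce11, plus strand): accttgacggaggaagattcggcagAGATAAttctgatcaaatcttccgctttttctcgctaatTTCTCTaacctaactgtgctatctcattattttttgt
col-103, own promoter (chrIV:763632-763732, ce11, minus strand): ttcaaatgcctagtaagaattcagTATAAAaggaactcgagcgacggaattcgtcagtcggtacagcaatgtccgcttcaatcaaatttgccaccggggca
col-98, own promoter (chrIII:13018790-13018890, ce11, plus strand): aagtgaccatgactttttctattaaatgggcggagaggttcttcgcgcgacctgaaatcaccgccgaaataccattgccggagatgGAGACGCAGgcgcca

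The first kind lay in a promoter shared with a protein-coding gene that is no collagen, and it held the 3 strongest collagen peaks. At col-38 (chromosome II, from 8569426 to 8569610) the thresholded signal was 255, with 92.7 for replicate 1 and 162 for replicate 2. Its summit was at −450 bp from col-38 but at −389 bp from rpl-5, which encodes a protein of the large ribosomal subunit and is read in the other direction. The summit also lay in exons of the non-coding genes F54C9.16 and F54C9.17. At col-2 the signal was 218, with 99.9 in replicate 1 and 118 in replicate 2 (chromosome IV, positions 10085795 to 10085955). The col-2 gene is known as a collagen gene expressed when dauer larvae form, and its summit, at −436 bp, was nearer to ndc-80, a kinetochore gene (−250 bp). At col-71 (chromosome II, positions 3502652 to 3502995) the signal was 121, with 62.5 in replicate 1 and 54.2 in replicate 2. Its summit was at −254 bp from col-71 and at −144 bp from Y49F6B.2. All 3 summits thus stood nearer to the neighbour than to the collagen.

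The second kind, with 3 summits, lay inside another gene and in no promoter shared with another protein-coding gene. The col-38 summit, counted in the first kind, also lay inside non-coding genes. At col-185 the signal was 111.5, with 49.3 in replicate 1 and 54.6 in replicate 2 (chromosome X, positions 13511808 to 13512151). The summit, at −883 bp from col-185, fell in the tRNA gene printed above and in the non-coding gene H06A10.3. Of the 32-base words in this peak, 83.7% occur once in the genome, against 100% in each of the other collagen peaks. At col-8 the signal was 91.8, with 40.5 in replicate 1 and 46.2 in replicate 2 (chromosome III, positions 7021293 to 7021636). That summit, at −865 bp, lay in an intron of rfl-1, a subunit of the enzyme that activates the ubiquitin-like protein NEDD8, 259 bp past its 5′ end. The col-63 summit (chromosome I, positions 8245477 to 8245820), at −686 bp, lay in an exon of the homeobox gene ceh-8. Its signal was 51.7, with 39.1 in replicate 2, and replicate 1 had no summit within 100 bp.

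The third kind had no other gene at the summit and no promoter of a gene that is no collagen, and its signals ran from 53.9 to 79.7. The numbered collagens col-3 and col-117, whose 5′ ends face each other 588 bp apart, shared a summit at −271 and −317 bp (chromosome IV, positions 8824340 to 8824683). Its signal was 70.2, with 14.8 in replicate 1 and 52.3 in replicate 2, ranks 6957 and 1577 of those lists. At col-98 (chromosome III, positions 13018668 to 13019011; summit at −168 bp) the signal was 53.9, with 14.1 in replicate 1 and 40.4 in replicate 2. At col-103 (chromosome IV, positions 763510 to 763853) the summit was at −4 bp. The signal was 58.3, with 22.4 in replicate 1, while replicate 2 had 12.8 at the nearest summit and 32.6 at another, 101 bp downstream of the 5′ end. The last of them, col-42 (chromosome V, positions 18637588 to 18637931), had its summit at −724 bp, with a signal of 79.7, and 34.1 and 43.6 in replicates 1 and 2. At col-3 with col-117, and at col-98, replicate 2 held the peak among its strongest while replicate 1 did not.

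**Figure D2:**
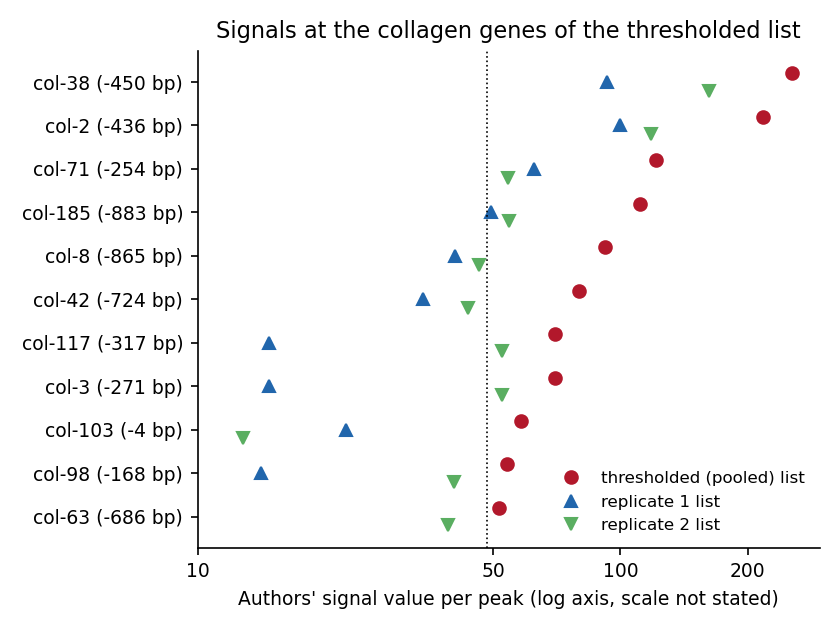
Signal values (horizontal log axis, authors' scale) at the 11 collagen genes of the thresholded list, with the summit position from each gene's 5′ end in bp, in the thresholded list (circles), replicate 1 (upward triangles) and replicate 2 (downward triangles). The dotted line is the lowest thresholded signal, 48.4, and col-38 (255) and col-2 (218) stand above the others, which run from 51.7 to 121.

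Within the thresholded list the median collagen signal was below that of other genes. The strongest summit per gene had a median signal of 79.7 over the 11 collagens, against 98.1 over 2717 other genes. Only col-38 and col-2, ranked 143 and 235, were among the 500 strongest peaks. Among pooled summits the medians were 19.2 over 47 collagens and 31.0 over 7235 other genes. The authors' −log10 q was at its highest value in the pooled list, 3.84, for 12 of the 47 collagens (25.5%), against 39.0% of other genes with a pooled summit, and it was under 1 for 32 (68.1%), against 44.3%.

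The median collagen summit also lay further upstream in the thresholded list. There the median position was −436 bp for the 11 collagens, against −226 bp for other genes, and 5 of 11 lay within 400 bp upstream, against 71.3%. At least 500 bp upstream lay 4 of 11, against 17.8%. In the pooled list this difference was small, with medians of −271 bp over 47 collagens and −252 bp over other genes. With so few thresholded collagen summits, these positions are a description only.

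**Figure D3:**
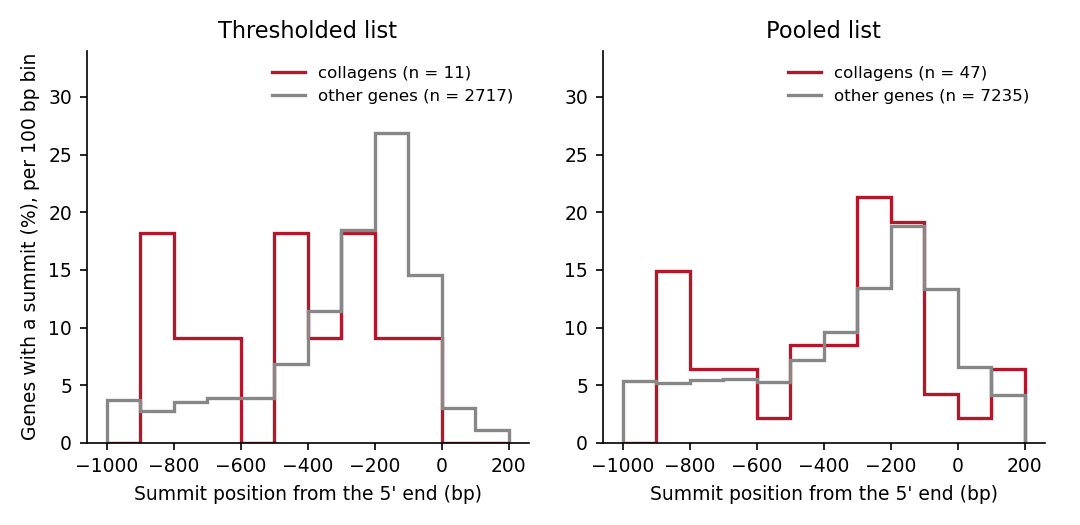
Position of the strongest summit per gene relative to the 5′ end (horizontal axis, bp, upstream is negative), as a percentage of the genes with a summit per 100 bp bin (vertical axis), for collagens and other protein-coding genes in the thresholded list (left) and the pooled list (right). The 11 collagens on the left are spread out, with a median of −436 bp, where other genes gather around a median of −226 bp.

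The shares were also taken by whether a gene has a close neighbour. Another protein-coding 5′ end lay within 1000 bp for 24 of 172 collagens (14.0%), against 23.6% of other genes. Among these, 6 of 24 collagens had a thresholded summit, against 31.6% of other genes. Among genes with no such neighbour, 5 of 148 collagens (3.38%) had one, against 8.20% of other genes. When each summit was given only to the protein-coding gene with the nearest 5′ end, 7 collagens (4.07%) kept one, against 9.83% of other genes.

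None of the 16 body shape collagens had a thresholded summit, against 13.7% of all protein-coding genes, and 6 had a pooled one (37.5%, against 36.5%). A list of 16 genes is short for a count of 0. It does not set them apart from the numbered collagens, of which 11 of 156 (7.05%) had a thresholded summit. Of the 6 furrow collagens, dpy-3, dpy-8 and dpy-10 had weak pooled summits and dpy-2, dpy-7 and dpy-9 had none. The strongest was dpy-10, known from its dumpy and left-handed roller mutants, with a pooled signal of 27.5 at −341 bp, 12.2 in replicate 1 and 17.4 in replicate 2. It ranked 6111 in the pooled list, with a −log10 q of 1.12. At dpy-8 the pooled signal was 16.7, with 8.84 in replicate 1 and no match in replicate 2. At dpy-3 it was 16.4, with no match in replicate 1 and 7.93 in replicate 2.

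Other shape collagens were as weak. The pooled signal was 16.8 at dpy-4 and 15.5 at dpy-17, neither with a summit of a replicate within 100 bp, and dpy-5 and dpy-13 had no pooled summit. Of the roller and squat genes, rol-6, whose dominant allele is a common transformation marker, had 25.5 in the pooled list at −812 bp. Replicate 1 had 21.7 there, which ranked 3176 in its list, and replicate 2 had no summit in the rol-6 window. The genes sqt-1, sqt-2 and sqt-3 had no pooled summit in their windows, nor did bli-1 and bli-2. Some genes without a pooled summit had a weak one in the list of 1 replicate, with signals of 12.3 at bli-2, 11.8 at dpy-13 and 11.5 at dpy-7 in replicate 1, and of 12.7 at sqt-2 in replicate 2. No list held a summit in the window of bli-1, dpy-2, dpy-5, dpy-9, sqt-1 or sqt-3. Strong peaks did lie downstream of some body shape genes, in windows of their neighbours. A summit with a signal of 200 (81.9 in replicate 1, 120 in replicate 2) lay 1322 bp past the 5′ end of sqt-2 and at −19 bp from enee-1. Summits past dpy-17 (signal 70.6 at 1580 bp) and dpy-9 (signal 70.5 at 1810 bp) were in the windows of sax-2 and R02D3.8.

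Numbered collagens just under the threshold had summits close to the gene. At col-147 the pooled signal was 46.4 at −197 bp, against a lowest thresholded signal of 48.4, with 9.30 in replicate 1 and 37.0 in replicate 2. At col-144 it was 45.4 at −107 bp, with 13.1 in replicate 1 and 27.8 in replicate 2. At col-166 it was 45.1 at −193 bp, with 32.8 in replicate 2 and no replicate 1 summit within 100 bp. By signal value, replicate 2 had the higher or only match in all 3. It also did at 9 of the 11 collagens inside the threshold, with col-71 and col-103 the other way. The replicate lists were called separately, and the scale of their values is not stated. By rank within its own list, replicate 1 stood ahead at col-71 and col-103, at col-2 (179 against 320) and at col-8 (1281 against 1888). It also did so at col-42 (1683 against 2023) and col-185 (924 against 1469). Replicate 2 stood ahead by rank at col-3, col-38, col-98 and col-117, and alone at col-63.

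Below them the signals dropped quickly. The next numbered collagens were col-153 (25.6), col-55 (22.4), col-181 (21.2), col-10 (20.8), and col-159 with col-160 (20.0, a shared summit). The lowest pooled collagen signal was 14.2, close to the lowest of the whole pooled list, 13.95. Of the 47 pooled peaks in collagen windows, 19 (40.4%) had a summit of each replicate within 100 bp, against 34.1% of all other pooled peaks. In the thresholded list this held for 9 of 10 collagen peaks, against 93.1% of the other peaks.

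Some collagens had thresholded peaks inside or near the gene but outside the window, and 5 of these summits lay at genes of small RNAs. No share over all thresholded summits stands beside this count, so whether it is particular to collagens was not tested. The summit in col-85, 344 bp past its 5′ end (signal 107, with 36.8 in replicate 1 and 69.3 in replicate 2), fell in the tRNA gene WBGene00014524, which lies in an intron. In col-99 a summit 3902 bp past the 5′ end (signal 73.8) fell in the tRNA gene WBGene00023019. In col-72 a summit at 2658 bp (signal 75.6) fell in the tRNA gene WBGene00023160, while another at 452 bp (signal 86.3, with 44.1 in replicate 1 and 40.9 in replicate 2) lay in an intron with no other gene. Past col-181, a summit at 1331 bp (signal 95.2) stood at −42 bp from the tRNA gene WBGene00014540. The strongest of all, at −1777 bp from col-94 (signal 252, with 99.4 in replicate 1 and 141 in replicate 2), stood at −29 bp from the snRNA gene R07E5.16, inside the dynein heavy chain gene dhc-4. Remaining summits within 2000 bp were at −1228 bp of col-10 (signal 54.1, inside B0222.11) and 1407 bp past col-103 (signal 54.7, inside gst-40). Of the 172 collagen windows 1, that of col-185, held the 5′ end of a tRNA gene, with no share over other genes to set beside it.

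Words of 6 bases were counted in the promoters as a description. In the 300 bases from 250 upstream to 50 downstream of the 5′ end, the TATA box word TATAAA occurred on either strand in 115 of 172 collagen promoters (66.9%), against 37.7% of other protein-coding promoters. The word AGGTCA, a core of nuclear receptor sites, occurred in 14.5% of collagen promoters, against 8.21%. For the GATA factor word AGATAA the shares were 28.5% and 21.1%, and for the related TGATAA they were 29.7% and 30.2%. The word GAGAGA was in 28.5% of collagen promoters, against 21.7%. Promoters of the 11 collagens with a thresholded summit held TATAAA in 7 cases, and of those of other genes with one 33.7% held it. These are matches of letters and not sites. Collagen promoters held more G and C, with a median of 38.0%, against 34.3%.

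At the summits themselves TATAAA was rarer than beside them. Within 50 bp of the 3220 thresholded summits it occurred in 3.88% of windows, against 10.7% of windows shifted by 500 bp to either side. Of the 10 collagen peaks it lay in 1, that of col-103 printed above. GAGAGA occurred in 24.9% of thresholded windows, against 5.37% of shifted ones, and in none of the 10 collagen windows. Around pooled summits GAGAGA was in 7 of 47 collagen windows (14.9%), against 14.8% of windows at pooled peaks of other genes. The 10 words with the largest excess at thresholded summits were taken from the same peaks and overlap each other, so they serve as a description. They were GAGAGA and AGAGAG, then AGAGAC with AGAGAA and AAGAGA, and 5 with CpG steps (ACGCGC, also ACGCAG, also GACGCA, also GAGCGC, and CGTCTC), all counted on both strands. At least 1 of them lay in 6 of the 10 collagen windows, against 68.3% of all thresholded windows and 23.9% of shifted ones. The windows of col-38, col-63, col-103 and col-185 held none of them.

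Collagen promoters were about as readable as others. The median collagen window consisted entirely of 32-base words that occur once in the genome, as did that of other genes (100% each), and 17 of 172 (9.88%) were under 90%, against 14.2% of other genes. The read length and the mapping rules are unknown, so this is only a guide. Collagen genes were shorter, with a median length of 1220 bp against 2040 bp. The median distance from the 5′ end to the nearest thresholded summit was 12707 bp for collagens and 11141 bp for other genes.

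In a short list of 14 genes that process collagens, a larger share held summits than among the collagens. Of 14 genes for collagen maturation, 4 had a thresholded summit (28.6%, against 13.7% of all protein-coding genes) and 10 a pooled one (71.4%, against 36.5%). The protein disulphide isomerase gene pdi-6 had a signal of 215.3 at −23 bp, with 94.3 in replicate 1 and 112 in replicate 2. Its relative pdi-3 had 214.9 at −699 bp in a peak shared with ubql-1. At pdi-2, which encodes a subunit of the prolyl hydroxylase that modifies collagens, the signal was 83.3 at −60 bp, with 26.9 in replicate 1 and 51.8 in replicate 2. At bli-4, a convertase gene needed to cut procollagens, it was 60.3 at −343 bp, with 32.0 in replicate 1 and 24.5 in replicate 2. The isomerases serve secreted proteins in general, not collagens alone. No thresholded summit lay at bli-3, doxa-1, dpy-11, dpy-18, dpy-31, mlt-7, pdi-1, phy-2, phy-3 or tsp-15. With 14 genes, these shares are a description only.

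Other structural genes of the cuticle held few summits, and its regulators were mixed between the lists. None of 35 cuticlin genes, which encode other cuticle proteins, had a thresholded summit, against 13.7% of all protein-coding genes, and 5 had a pooled one (14.3%, against 36.5%). None of 12 moulting and apical matrix genes had a thresholded summit and 3 had a pooled one, beside the same shares of 13.7% and 36.5% over all protein-coding genes, and a list of 12 genes is short for a count of 0. Among 16 regulators of cuticle genes 1 had a thresholded summit (6.25%, against 13.7%), while 8 had a pooled one, a larger share than the 36.5% of all protein-coding genes. Of these 16, 3 had a summit among replicate 1's strongest peaks and 1 among replicate 2's. The regulator with a thresholded summit was sma-2, which encodes a Smad of the BMP-like body size pathway. Its signal was 75.1 at −18 bp, with 28.5 in replicate 1 and 42.5 in replicate 2. None of the 3 basement membrane collagens emb-9, let-2 and cle-1 had a thresholded summit, against 13.7% of all protein-coding genes. Only emb-9 had a pooled one (33.3%, against 36.5%), with a signal of 16.8 at −902 bp. With 3 genes, a count of 0 says little.

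**Figure D4:**
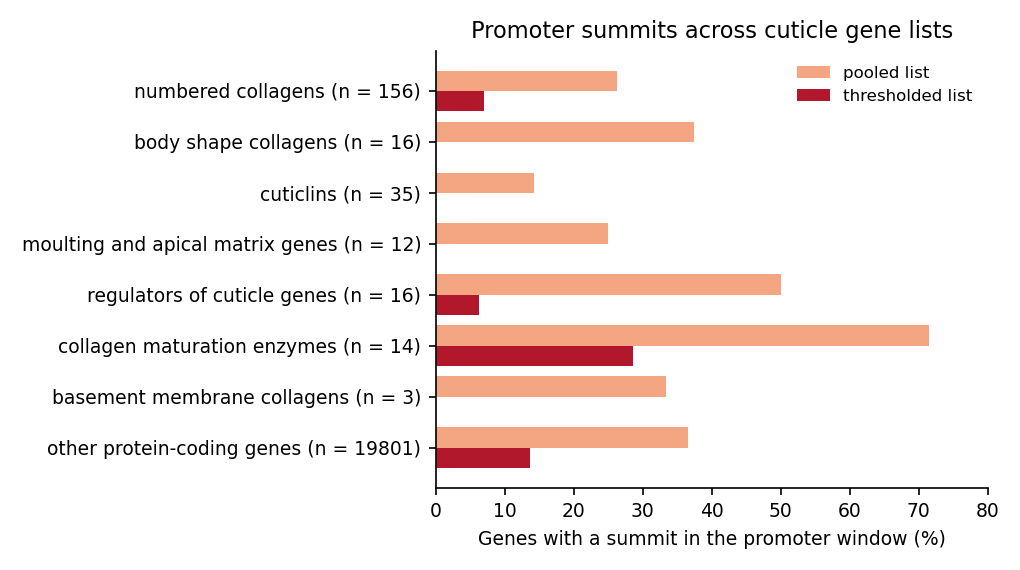
Share of genes with a summit in the promoter window (horizontal axis, %) in the pooled list (light bars) and the thresholded list (dark bars), for collagens, for other lists of cuticle genes and, at the bottom, for other protein-coding genes. Maturation enzymes reach 28.6% in the thresholded list (4 of 14 genes), where numbered collagens stand at 7.05% and body shape collagens (16 genes) and cuticlins at 0.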

How the data were processed

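Peak lists from 2 samples, labelled biological replicates 1 and 2 of 1 group, were analysed on the ce11 build. Per the deposited notes, peaks were called by the authors with a control, on either replicate alone and on the pool of both, and they derived the thresholded list from these by the irreproducible discovery rate. No source used here gives the aligner or the peak caller. The deposited signal value of a peak has no stated scale, and the authors' −log10 q comes from the narrowPeak q column. Depth is unknown, since the lists hold no read counts, and Wilson 95% intervals cover counting error only. The lists on ce10 were not used.

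Summits (start plus deposited offset) were placed on Ensembl release 115 genes of WBcel235, the same assembly as ce11, and sequence was read from the RefSeq copy of that assembly. The promoter window covered 1000 bp before and 200 bp after the 5′ end. Replicate summits were matched within 100 bp. Members, lists and words were chosen with earlier results of these data known. Named genes were every collagen with a thresholded summit, the 10 strongest with only a pooled summit, the 16 body shape collagens, those with a thresholded summit outside the window within 2000 bp, and at most 4 peaks per other list. The collagens col-72, col-85 and col-99, with summits inside the gene, were also named, col-99 after its values were seen. No test between conditions is possible with 1 group, and shares are given beside those of all other protein-coding genes. The scripts used Python 3.11.15, pandas 2.3.3 and scipy 1.17.1, and the window overlap was tested on simulated data. Alternatives were other windows, peak regions, transcript starts, nearest genes, isolated genes, stricter and looser lists and each replicate's own list. Leaving out summits inside other genes was added after seeing the data.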

Additional observations from a re-analysis of the deposited data

How the results depend on the processing

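The count of 11 collagens with a thresholded summit came to 7 when each summit went to the nearest gene, 5 of 148 among genes with no close neighbour, 7 without summits inside other genes and 5 with the stronger 50% of the list. Leaving out a replicate gave 8 to 13, and the ratio of shares to other genes, 0.466, then ran from 0.348 to 0.574. The ratio stayed under 1 in all 12 alternatives and moved by less than the spread between the 2 replicate lists (SD 0.16). Those 2 lists are themselves among the 12, so the SD is no separate yardstick for them. The 47 collagens with a pooled summit came to 19 when each replicate had to have a summit there, with a ratio of 0.537 against 0.748. That pooled ratio was 0.796 with 500 bp to each side, 0.794 with peak regions, 0.707 with transcript starts, 0.792 with nearest genes, 0.673 without summits inside other genes, and 0.798 to 0.851 without a replicate. The pooled ratio moved by more than its own SD between the replicate lists (0.038) in 8 alternatives and by less in 2. The cause of these shifts was not tested. No paired analysis was possible because the series holds 1 group. The lists give no read counts, so what depth limits at weak collagen summits is unknown.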

Other observations

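By chromosome, thresholded summits were found at 1 of 22 collagens on chromosome I (4.55%, against 19.7% of other genes there), 2 of 31 on II (6.45%, against 13.6%) and 2 of 13 on III (15.4%, against 21.1%). On IV they were found at 4 of 44 (9.09%, against 12.1%), on V at 1 of 32 (3.12%, against 9.13%) and on X at 1 of 30 (3.33%, against 10.7%). These thresholded shares, from 1 to 4 collagens each, were lower at collagens than at other genes on all 6 chromosomes, but pooled shares were not: on V, 11 of 32 collagens (34.4%) had a pooled summit, against 30.9% of other genes there.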
